A study of Mus musculus with 6 samples.

Results

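Slc1a5, Fli1, Aldh9a1, Wls and Ppie are 5 genes whose transcripts differed between the splenic B cells of Btk KO and Xid mice. They were chosen by their array intensities, for that difference between the 2 mutant lines. Each gene has 1 probe set, so the group is 5 of the 7453 probe sets bright enough to be tested, which stand for 5596 named genes. The level in wild type CBA mice shows which line stood apart. For Slc1a5, Fli1 and Aldh9a1 it was Xid, with higher signal, and for Wls and Ppie it was Btk KO, with higher and lower signal respectively.

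Whole splenic B cells of adult mice were measured on 6 MG_U74Av2 arrays, 2 for each of 3 groups. CBA is the wild type. Xid is the CBA/N strain, whose Btk gene carries the R28C substitution. Btk KO is a Btk knockout on SW129 that had been crossed back to CBA for 9 generations. In both mutant groups the Btk defect is therefore tied to a strain history of its own, and the 2 cannot be told apart here. A first run of 3 arrays, 1 per group, was followed by a second run with new RNA from new mice, and the labels do not say whether an RNA came from 1 mouse or several. In bulk RNA, fewer cells of a type and less RNA per cell cannot be told apart.

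Btk encodes the kinase that passes the B cell receptor signal on to calcium release and NF-kB. The R28C substitution lies in its membrane-binding domain, so the transcript and protein of the Xid strain remain while the kinase fails to reach the membrane; the knockout is made to remove the kinase itself. The 5 genes act in unrelated processes. Slc1a5 encodes a neutral amino acid transporter of the plasma membrane that carries glutamine into activated lymphocytes. Fli1 encodes a transcription factor of the ETS family, active in blood and vessel cells. Aldh9a1 encodes an aldehyde dehydrogenase of the pathway that makes carnitine. Wls encodes the membrane protein that carries Wnt ligands to the cell surface. Ppie encodes a nuclear cyclophilin, a prolyl isomerase with an RNA-binding domain that is found in spliceosomes.

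Fli1 is the regulator among the 5, and ETS factors bind DNA around the letters GGAA. The promoters that could be shown are those of Aldh9a1, which was higher in the same line as Fli1, and of Wls, which was not. They are RefSeq sequences of the build GRCm38.p6, found for 2 of the 5 genes, and span 250 bases before to 50 after the gene's start, 5′ to 3′ on the gene's strand. The reference is C57BL/6J and not one of the strains measured. Capitals mark GGAA and its reverse complement TTCC.
Aldh9a1, chr1:167349741-167350040, plus strand: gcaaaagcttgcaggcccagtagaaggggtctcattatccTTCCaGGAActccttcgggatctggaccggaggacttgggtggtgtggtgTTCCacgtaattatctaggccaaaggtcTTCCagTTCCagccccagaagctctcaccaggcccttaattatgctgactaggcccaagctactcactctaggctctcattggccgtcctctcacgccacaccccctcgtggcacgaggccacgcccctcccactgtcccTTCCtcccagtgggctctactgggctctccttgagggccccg
Wls, chr3:159839400-159839699, plus strand: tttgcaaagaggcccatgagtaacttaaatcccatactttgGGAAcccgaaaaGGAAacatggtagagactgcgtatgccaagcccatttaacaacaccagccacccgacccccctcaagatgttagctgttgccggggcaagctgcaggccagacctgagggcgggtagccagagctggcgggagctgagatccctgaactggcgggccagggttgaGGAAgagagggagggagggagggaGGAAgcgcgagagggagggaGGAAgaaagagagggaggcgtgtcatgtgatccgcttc
The Aldh9a1 promoter holds 6 such sites, 1 of them GGAA, and the Wls promoter 5, all GGAA. At least 1 site occurs in 96.0% of the 32851 promoters of the table, whose median is 3. As many sites as in Aldh9a1 or more occur in 15.7%, and as many as in Wls or more in 28.6%. The longer form CCGGAA, searched on both strands, occurs in 14.9% of promoters and in neither of these. The matches describe letters only, and binding was not measured.

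The arrays were scaled alike, with a 2% trimmed mean of 100.06 on each. The Btk KO array of run 1 differed in RNA quality, with a 3' to 5' ratio of 10.4 for the Gapdh controls against 0.756 to 1.61 on the other 5 arrays. It went through hybridisation on another day than the rest of run 1. Values of Btk KO are therefore given for each run. Btk itself, the targeted gene, measured 874.1 and 749.8 in CBA, 841.0 and 643.9 in Xid, and 276.1 and 173.6 in Btk KO, in the order run 1 and run 2. Both Btk KO arrays lay below the 4 others.

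Slc1a5 showed the largest difference of the 5. Its intensity, in scaled units, was 199.9 and 173.9 on the Xid arrays, 25.9 and 29.2 in CBA, and 7.0 and 31.3 in Btk KO. Both Xid arrays lay far above the 4 others, while Btk KO and CBA overlapped. The means were 187 ± 18.4 in Xid, 27.5 ± 2.33 in CBA and 19.1 ± 17.2 in Btk KO (mean ± SD, n = 2 arrays each), so Xid was 6.78 times CBA. On the log2 scale, after a pseudocount of 6, Xid minus CBA was 2.52 ± 0.47 (SE from limma), at 2.69 in run 1 and 2.35 in run 2. Btk KO minus CBA was -0.61 ± 0.47, with a 95% interval from -1.71 to 0.50. Its 2 runs went opposite ways, at -1.30 and 0.08, and the low value came from the array with the Gapdh ratio of 10.4. The Btk KO mean lay just below about 19.8, the limit for dim probe sets. The size of the log2 differences of Btk KO therefore depends on the pseudocount.

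Fli1 measured 101.9 and 160.3 in Xid, 31.0 and 51.9 in CBA, and 22.9 and 37.6 in Btk KO. The Xid arrays did not overlap with the others, and in each group run 2 read higher than run 1. The means were 131 ± 41.3, 41.5 ± 14.8 and 30.2 ± 10.4, and Xid was 3.16 times CBA. Within the runs Xid minus CBA was 1.54 and 1.52, so the difference was nearly the same in both although the levels moved with the run. The fitted difference was 1.53 ± 0.37. For Btk KO minus CBA it was -0.38 ± 0.37, with a 95% interval from -1.24 to 0.47 and run values of -0.36 and -0.41.

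Aldh9a1 measured 64.0 and 88.4 in Xid, 21.8 and 14.9 in CBA, and 21.7 and 10.4 in Btk KO. Only the Xid arrays lay clearly above the intensity of about 19.8 that served as the limit for dim probe sets, and the CBA and Btk KO means of 18.4 ± 4.88 and 16.1 ± 7.99 lay below it. The Xid mean was 76.2 ± 17.3. No ratio to means below the limit is given, since such values may be background, and the size of the log2 differences depends on the pseudocount. Xid minus CBA was 1.75 ± 0.39, at 1.33 and 2.18 in the runs, and Btk KO minus CBA was -0.18 ± 0.39 (95% interval -1.08 to 0.72). By its name the probe set may not tell related transcripts apart, and it passed the limit through the group in which it was high.

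Wls was the single gene of the 5 that was higher in Btk KO. It measured 174.9 and 140.3 in Btk KO, 56.3 and 61.1 in CBA, and 56.0 and 33.5 in Xid. Both Btk KO arrays lay above the others, and the Xid arrays reached at most the lower CBA array. The means were 158 ± 24.5, 58.7 ± 3.39 and 44.8 ± 15.9, and Btk KO was 2.68 times CBA. Btk KO minus CBA was 1.33 ± 0.29 on the log2 scale, at 1.54 in run 1 and 1.12 in run 2. Xid minus CBA was -0.39 ± 0.29 (95% interval -1.06 to 0.29), at -0.01 and -0.76.

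Ppie was lower in Btk KO. It measured 16.2 and 8.9 there, 51.8 and 44.4 in CBA, and 60.8 and 44.2 in Xid. Both Btk KO arrays lay below the others and below the limit for dim probe sets, while CBA and Xid overlapped. The means were 12.6 ± 5.16, 48.1 ± 5.23 and 52.5 ± 11.7. The Btk KO level may be background, so its share of CBA is not given, and the size of the log2 differences depends on the pseudocount. Btk KO minus CBA was -1.57 ± 0.34, at -1.38 and -1.76 in the runs. Xid minus CBA was 0.10 ± 0.34 (95% interval -0.69 to 0.90).

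**Figure D1:**
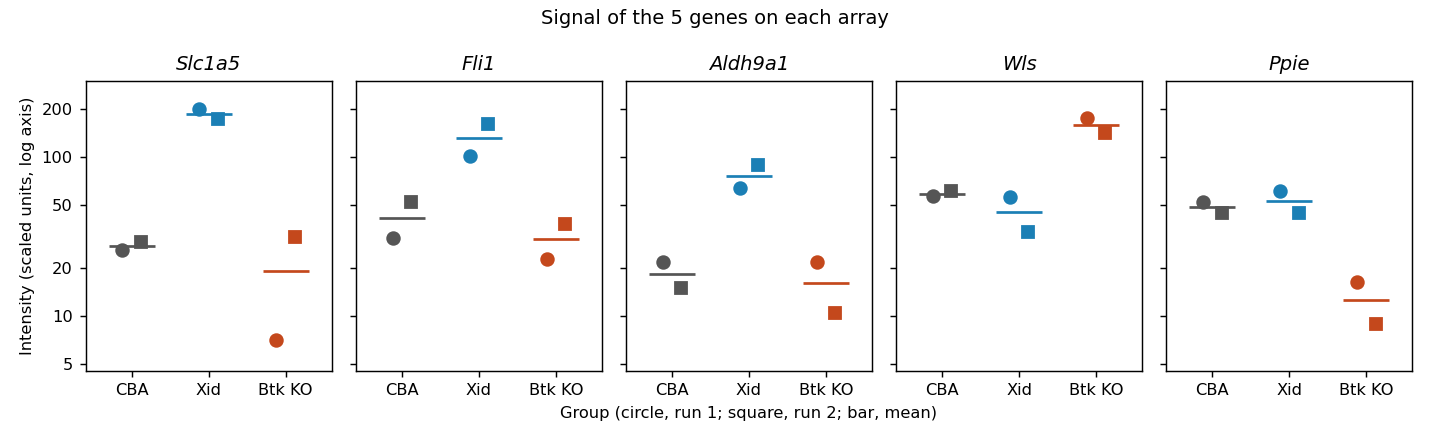
Intensity of the 5 genes on each of the 6 arrays, in scaled units on a log axis, by group; circles are run 1, squares run 2 and bars the group means. The Xid arrays of Slc1a5 (199.9 and 173.9), Fli1 and Aldh9a1 stand above the other 4, the Btk KO arrays of Wls (174.9 and 140.3) above them, and those of Ppie (16.2 and 8.9) below them.

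Between the lines themselves, Btk KO minus Xid was -3.13 ± 0.47 for Slc1a5, -1.92 ± 0.37 for Fli1, -1.93 ± 0.39 for Aldh9a1, -1.67 ± 0.34 for Ppie and 1.72 ± 0.29 for Wls. These values chose the genes and are a description. The Btk KO and Xid arrays did not overlap for any of the 5, as for 26.5% of all probe sets. By size the differences held places 5, 16, 14, 27 and 26 of 7453. In limma, with p-values adjusted by Benjamini-Hochberg over all probe sets, 0 of the 5 passed in this contrast without the run as a block and 2 with it, Slc1a5 and Fli1. Over all probe sets the calls were 3 (0.0403%) without the block and 14 (0.188%) with it, with 269 (3.61%) and 545 (7.31%) at an unadjusted p under 0.05. Since the contrast chose the genes, nothing is read from their count. Each difference from CBA shares arrays with that contrast, so it too is given without a p-value.

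**Figure D2:**
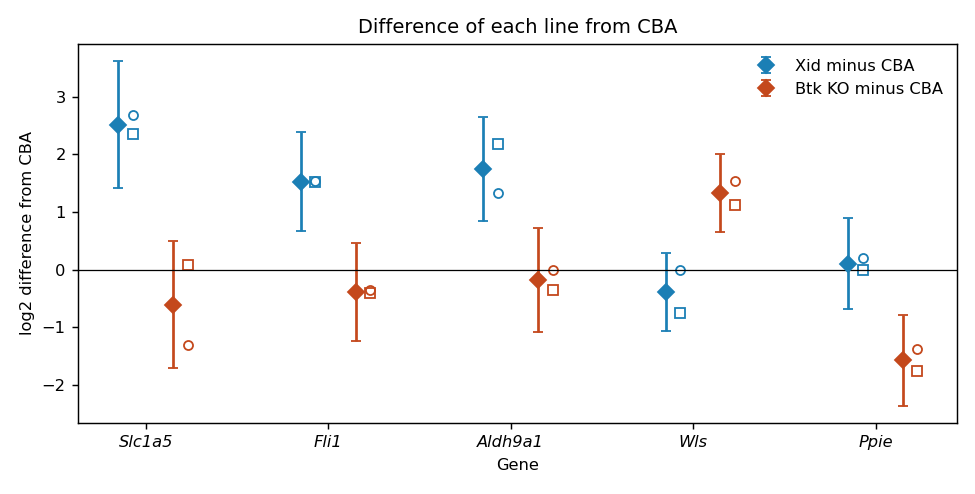
Difference of Xid (blue) and of Btk KO (orange) from CBA for each gene on the log2 scale; diamonds are the fitted values with 95% limma intervals, open circles run 1 and open squares run 2. Xid lies at 2.52, 1.53 and 1.75 for Slc1a5, Fli1 and Aldh9a1, and Btk KO at 1.33 and -1.57 for Wls and Ppie, while the other line's interval includes 0 for each gene; both differences share the CBA arrays.

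The gap between the nearest arrays gives a measure of how clean each split was. For Slc1a5 the lower Xid array was 5.56 times the highest of the 4 others, for Aldh9a1 2.94 times and for Fli1 1.96 times. Both Xid arrays lay above all others for 291 of 7453 probe sets (3.9%), with a median gap of 1.06, and the 3 genes held places 3, 4 and 5 by gap among these. Both Btk KO arrays lay above all others for 629 probe sets (8.44%), where Wls, at 2.3 times, held place 7. Both lay below for 449 (6.02%), where Ppie held place 2. Its Btk KO arrays lay below the limit for dim probe sets, so the size of its gap is not given. The place of Ppie may rest on background. These places follow from the choice of the genes.

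A single contrast of the group means did not enter the choice. In this balanced design the estimate of the mean of both mutant lines minus CBA is independent of that of the difference between the lines. Both contrasts share 1 estimate of spread per probe set, so their p-values are not independent. The first is the mean of the 2 lines' differences from CBA, so a shift in 1 line alone moves it too. For Slc1a5 these differences were 2.52 in Xid and -0.61 in Btk KO. A value away from 0 therefore does not show that both Btk defects moved the gene. This mean was 0.96 ± 0.41 for Slc1a5, 0.79 ± 0.33 for Aldh9a1, 0.58 ± 0.32 for Fli1, 0.47 ± 0.25 for Wls and -0.73 ± 0.29 for Ppie. With 1 array left out, the value ranged from 0.58 to 1.34 for Slc1a5, 0.58 to 0.99 for Aldh9a1, 0.25 to 0.90 for Fli1, 0.31 to 0.64 for Wls and -0.88 to -0.59 for Ppie, and it kept its sign. A single array moved it by over 1.5 times for Slc1a5 (0.58 without Btk KO of run 2), Fli1 (0.25 without CBA of run 1 and 0.90 without CBA of run 2) and Wls (0.31 without Xid of run 1). Adjusted over all probe sets, 0 of the 5 passed in limma, with adjusted p between 0.65 and 0.81, and 0 with the run block (0.27 to 0.42). At an unadjusted p under 0.05 there were 3, Ppie at 0.039, Aldh9a1 at 0.048 and Slc1a5 at 0.049. With the run block there were 4, Aldh9a1 again among them. Aldh9a1 passed the filter through its high Xid arrays, and Ppie through its CBA and Xid arrays. Those arrays also enter this contrast, so nothing is read from the p-values of Aldh9a1 and Ppie. Over all 7453 probe sets 11 passed (0.148%) and 549 (7.37%) had an unadjusted p under 0.05, and with the run block 144 (1.93%) passed and 946 (12.7%) did so unadjusted.

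The other genes of each pathway were compared between the lines to see whether they moved with the 5. In none of the 5 lists did a further gene pass between Btk KO and Xid (0 in limma, with or without the run block). The median over all probe sets was 0.00. Of 17 further genes for amino acid transport and glutamine use, 0 had an unadjusted p under 0.05, and the median was 0.12, within a range from -0.36 to 0.47. Slc7a5, the large neutral amino acid exchanger that runs on glutamine taken up by Slc1a5, measured 143 ± 15.1 in Xid and 193 ± 25.7 in Btk KO, a difference of 0.41 ± 0.22. It lay in the direction opposite to Slc1a5. Slc38a2, another glutamine carrier, differed by -0.36, and the mitochondrial enzyme genes Glud1 and Oat by 0.29 and 0.32.

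Of 13 further ETS factors 2 had an unadjusted p under 0.05, and the median was -0.16. Ets1, an ETS factor of lymphocytes and a chromosomal neighbour of Fli1, measured 521.0 and 638.3 in Xid, 494.6 and 398.5 in CBA, and 366.1 and 374.1 in Btk KO. Its difference between the lines, -0.63 ± 0.21, had the same sign as that of Fli1 and did not pass (adjusted p = 1.0 in limma, 0.49 with the run block). Spic, needed for red pulp macrophages, went the other way, at 346 ± 19.7 in Btk KO against 182 ± 27.3 in Xid and 65.1 ± 15 in CBA (Btk KO minus Xid 0.91 ± 0.23, adjusted p = 0.91, and 0.31 with the run block). Elf1 and Etv4 differed by 0.47 and 0.40.

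Of 26 further Wnt genes 1 had an unadjusted p under 0.05, and the median was 0.03. That gene was Lrp6, a co-receptor for Wnt ligands, at 154 ± 0.778 in Btk KO, 95.8 ± 28.5 in Xid and 121 ± 3.04 in CBA (0.68 ± 0.25). Lef1, a nuclear factor of the pathway, and the receptor gene Fzd3 differed by 0.48 and 0.43, and the repressor gene Tcf7l1 by -0.64.

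Among 11 further aldehyde dehydrogenase and carnitine genes the median was 0.12, and 1 had an unadjusted p under 0.05. Aldh1a1, which makes retinoic acid from retinal, measured 111.6 and 51.3 in Btk KO against 10.3 and 24.0 in Xid and 17.8 and 19.4 in CBA. The Btk KO arrays did not overlap with the others. Its difference of 1.89 ± 0.46 was about the size of that of Aldh9a1 with the opposite sign and did not pass (adjusted p = 0.87 in limma, 0.36 with the run block). Aldh7a1, Cpt1a, of the carnitine shuttle, and Shmt1 differed by -0.29, 0.30 and 0.40.

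Of 18 further cyclophilin and spliceosome genes 2 had an unadjusted p under 0.05, and the median was 0.02. Ppif, the mitochondrial cyclophilin, was lower in Btk KO like Ppie, at 70.0 ± 15.2 against 118 ± 8.63 in Xid and 106 ± 1.63 in CBA, a difference of -0.73 ± 0.23 that did not pass (adjusted p = 1.0 in limma, 0.49 with the run block). Aqr, a helicase of the intron-binding complex in which Ppie sits, differed by 0.58, being lowest in Xid at 127 ± 27.7 against 228 ± 11.1 in CBA. Snw1, a spliceosome core gene, differed by -1.13 ± 0.78 with values that overlapped, and Ppil2 by -0.30.

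**Figure D3:**
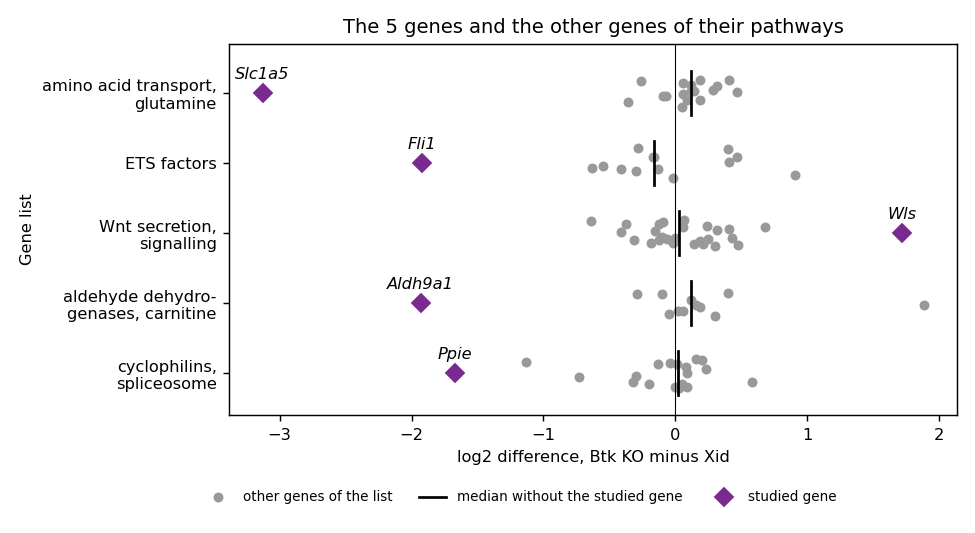
Log2 difference, Btk KO minus Xid, of each studied gene (diamonds) and of the other measured genes of its pathway list (circles, with random vertical spread; the vertical bar is their median). The list medians lie between -0.16 and 0.12, and 1 further gene, Aldh1a1 at 1.89, lies as far from 0 as the studied genes.

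The 5 genes lie on different autosomes, Slc1a5 on chromosome 7, Fli1 on 9, Aldh9a1 on 1, Wls on 3 and Ppie on 4, while Btk is on X. Their nearest measured neighbours, 5 on each side in the order of the gene table of GRCm38.p6 and on 1 side only for Wls, numbered 45. Between Btk KO and Xid 0 of the 45 passed in limma in either fit, and 2 had an unadjusted p under 0.05 (4.44%, against 3.61% of all probe sets). With the run block there were 4 such neighbours, 3 of them around Fli1, against 7.31% of all probe sets. The neighbours of Slc1a5 stayed between -0.26 (Strn4) and 0.39 (Psg19), those of Wls between -0.17 (Zranb2) and 0.18 (Srsf11), and those of Ppie between -0.15 and 0.68 (Mycl, with Akirin1 at 0.39). Around Fli1 they ranged from -0.77 (Thyn1) to 0.66 (Vps26b), with Ets1 beside it at -0.63. Around Aldh9a1 they ranged from -0.46 to 0.86 (Mgst3, a microsomal glutathione transferase, with the collagen receptor gene Ddr2 at 0.75), so the largest neighbours went opposite to Aldh9a1 itself.

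**Figure D4:**
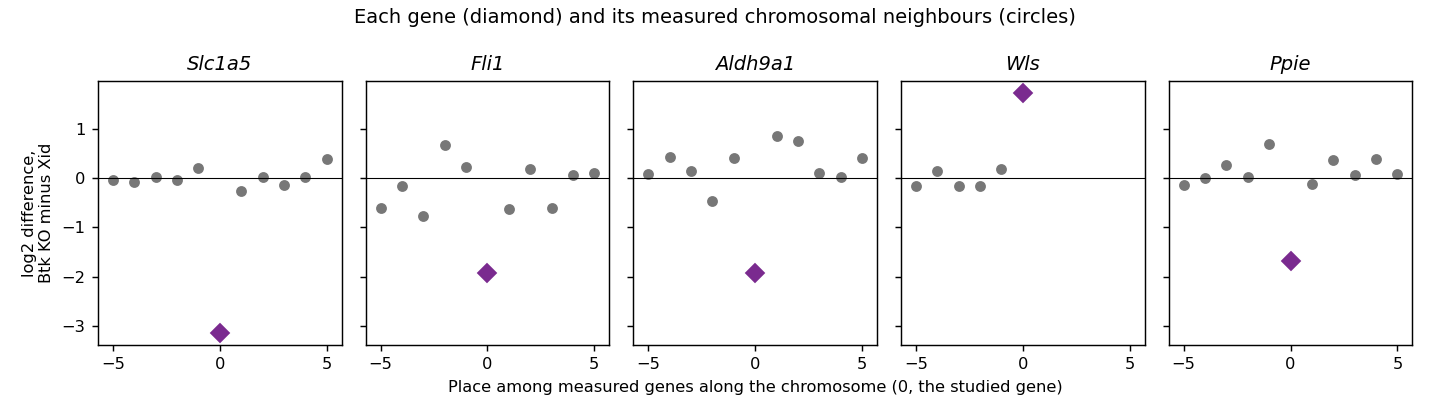
Log2 difference, Btk KO minus Xid, of each studied gene (diamond at 0) and of its nearest measured genes on the same chromosome (circles, numbered by place on either side). The circles lie between -0.77 and 0.86, and each diamond lies farther from 0 than all of its neighbours.

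Over the 6 arrays, the genes whose log2 values ran most like each of the 5 were taken from 5595 others by Pearson's r. The highest of so many on 6 arrays is a description. For Ppie the closest gene was Btk itself (r = 0.993), followed by the sialyltransferase gene St3gal1 (0.99), whose levels moved little, at 85.3 ± 2.69 in CBA and 71.0 ± 4.81 in Btk KO, and by the chemokine gene Cx3cl1 (0.975), at 31.9 ± 6.01 and 9.2 ± 6.79. For Slc1a5 they were Washc2, of the endosomal WASH complex (r = 0.993), the interferon gene Ifna9 (0.986) and Dhodh, of pyrimidine synthesis (0.982). Washc2 measured 287.1 and 259.4 in Xid against 105.6 to 150.3 elsewhere. Ifna9 also led for Fli1 (r = 0.972), before Cwf19l1 (0.965) and Tcof1, of ribosome synthesis (0.964). It measured 47.2 and 55.6 in Xid against 14.3 to 25.0 elsewhere, and its probe set may read near-identical interferon genes. For Aldh9a1 they were the kinase gene Pdk1 (0.956), Ndufa1 of complex I (0.942) and D030056L22Rik (0.938), which was 75.1 and 78.8 in Xid. For Wls they were the ubiquitin ligase gene Znrf1 (0.976), the cadherin gene Cdh3 (0.974) and Cdc45, of DNA replication (0.966). Cdh3 measured 64.0 ± 6.51 in Btk KO, 24.8 ± 3.61 in Xid and 35.1 ± 3.82 in CBA.

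Markers of other cells also differed between the groups. The B cell markers Cd79a and Ms4a1, at 3066.3 or more on each array, showed that B cell transcripts were abundant in all 6 samples, and the summed signal of 7 B cell markers was, in run 1 and run 2, 24861 and 20190 in Btk KO, 32890 and 21909 in Xid and 29980 and 29458 in CBA. Btk KO was thus the lowest within each run, and 6 of the 7 markers were lower there in both runs than in Xid. None of the 7 passed between the lines in limma, with or without the run block (1 of 7 at an unadjusted p under 0.05 in each fit). The summed signal of 8 of 10 listed neutrophil markers was 1096 and 1714 in Btk KO against 365 to 532 elsewhere. Between Btk KO and Xid 5 of the 8 were higher in both runs and 1 lower. In limma 0 passed, and 2 with the run block, against 0.188% of all probe sets (4 at an unadjusted p under 0.05 in each fit). S100a8, S100a9, Camp and Ngp differed by 2.42 to 2.92, but Lcn2, Mpo, Csf3r and Elane by 0.13, 0.18, -0.08 and -0.66. That of 10 of 12 erythroid markers was 23358 and 11543 in Btk KO against 6127 to 9544. Of these 10, 8 were higher in Btk KO than in Xid in both runs, and 0 passed in limma in either fit (7 at an unadjusted p under 0.05 in each). The sum of 8 of 11 NK cell markers was 797 and 1624 in Btk KO, 505 and 814 in Xid and 353 and 510 in CBA, and was the highest in Btk KO within each run. Between Btk KO and Xid 7 of these 8 were higher in both runs, and 0 passed in limma in either fit (3 at an unadjusted p under 0.05, and 6 with the run block). S100a8, a neutrophil granule gene, measured 267.1 and 629.3 in Btk KO against at most 65.4 elsewhere, and the haemoglobin gene Hba-a1 13054.9 and 6371.9 against 3777.1 to 6333.9. The neutrophil and erythroid sums thus set both Btk KO arrays apart from all others, as did Wls, Ppie and Btk. The B cell and NK cell sums did so only within each run. The part of these sums in the results for Wls, Ppie and Btk was not tested. For 14 of 15 macrophage markers the sum was 11032 and 14757 in Btk KO, 7187 and 10877 in Xid and 3425 and 5083 in CBA. It too was highest on both Btk KO arrays, though only just above the Xid array of run 2. It was also higher in Xid than in CBA within each run, as was the NK cell sum. Of the 14 markers, 13 were higher in Btk KO than in Xid in both runs. In limma 0 passed between the lines in either fit (5 at an unadjusted p under 0.05, and 7 with the run block). For the mean of both mutant lines minus CBA all 14 were higher in both runs. There 3 passed in limma, and 10 with the run block, against 0.148% and 1.93% of all probe sets. The part of the macrophage sum in the results was not tested. Lyz2, a macrophage and granulocyte gene, ranged from 140.7 to 343.4 and the T cell gene Cd3e from 9.7 to 62.6 over the 6 arrays.

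For the genes that were high in Xid, the single marker sum with both Xid arrays above the other 4 was that of 5 of 12 stromal and endothelial markers, at 473 and 452 against 339 to 447. Col1a2 alone made up 260.7 and 279.4 of the Xid sums, in run 1 and run 2. Of the 5 markers, 3 were lower in Btk KO than in Xid in both runs and 1, Col1a1, was higher. In limma 0 passed between the lines in either fit (0 at an unadjusted p under 0.05 in each). The part of this sum in the results was not tested. The dendritic cell sum, over 5 markers, ranged from 756 to 994 and the T cell sum, over 4, from 129 to 321, with overlapping groups. The plasma cell sum, over 3 markers, was 1758 and 1061 in Xid against 1131 to 2015 elsewhere. Among platelet markers 1 of 8, Gp9, was bright enough to be measured. No marker in these sums was listed at 0.

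**Figure D5:**
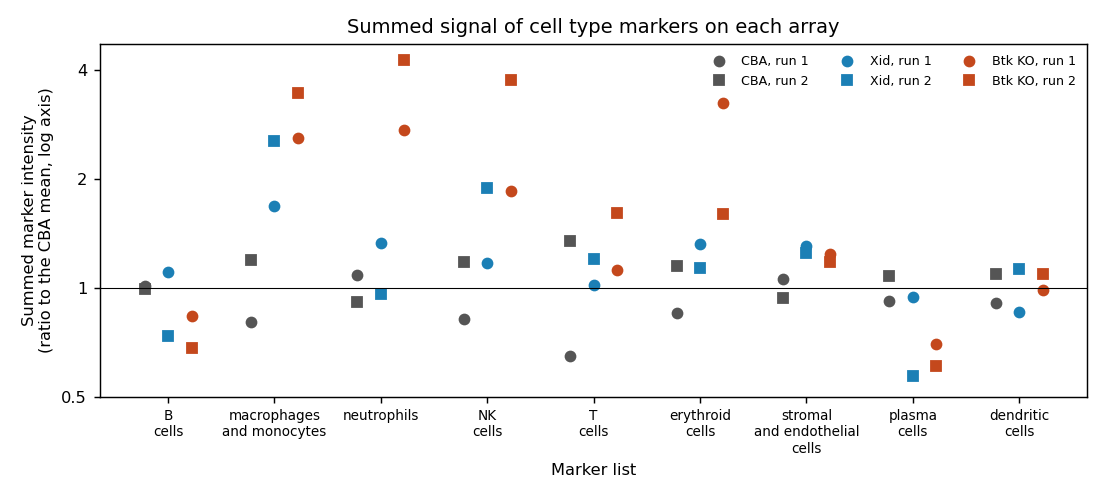
Summed intensity of each cell type's measured markers on each array, as a ratio to the mean of the CBA arrays on a log axis; colours are groups, circles run 1 and squares run 2. Neutrophil, erythroid and macrophage sums are highest on both Btk KO arrays, and the macrophage sum is also higher in Xid than in CBA.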

How the data were processed

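For each array the authors deposited a linear intensity per probe set, scaled and without detection calls; the summary method is not given in the sources used here. Chip lot and hybridisation day were read per the file headers. Of 12488 probe sets, 66 controls were left out. Of the rest, 10833 have 1 gene symbol, 396 several and 1193 none. Intensities were taken to log2 after adding 6, and probe sets with a mean log2 value below the 40th percentile (about 19.8) were left out, which kept 7453. This filter kept all 5 genes.

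The 3 group means were fitted in limma 3.58.1 (R 4.3.3; lmFit, eBayes with intensity trend; two-sided; Benjamini-Hochberg at 0.05), with 3 residual degrees of freedom, and checked on simulated data. The run block pairs arrays by run, as the labels state; deviations from the group means were correlated across probe sets within a run at 0.31, 0.374 and 0.441. P-values measure the spread between 2 arrays a group, and their number limits precision.

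The genes and lists were chosen with earlier results of these data known. Named are the 5 genes; per list up to 4 further genes with the smallest p between the lines; the 3 genes most alike; per neighbourhood the 2 largest differences; Btk; and S100a8, Hba-a1, Lyz2, Cd3e, Ms4a1 and Cd79a as markers. Each gene entered by its brightest probe set. Alternatives were the block, scaling, pseudocount, filter, trend, groups fitted and each array left out. Figures used matplotlib 3.10.9.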

Additional observations from a re-analysis of the deposited data

Results flagged for a closer look

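Compared with the CBA array of the same run, Fli1, Aldh9a1 and Wls lay on opposite sides in the 2 mutant lines in both runs. The share of all probe sets that did so was not counted, so nothing is read from their number. Fli1 was above CBA in Xid and below it in Btk KO (Btk KO minus Xid -1.92), Aldh9a1 likewise (-1.93), and Wls was below in Xid and above in Btk KO (1.72). For each of the 3, 1 of the 2 sides was small: the Btk KO values were -0.36 and -0.41 for Fli1 and -0.01 and -0.35 for Aldh9a1, and the Xid values were -0.01 and -0.76 for Wls. Those at -0.01 were near ties. Aldh9a1 read 21.7 in Btk KO and 21.8 in CBA, and Wls 56.0 in Xid and 56.3 in CBA, all in run 1. The CBA and Btk KO means of Aldh9a1 also lay below the limit for dim probe sets. The difference between the lines chose the genes, so its fit is a description and gives no independent test.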

How the results depend on the processing

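Btk KO minus Xid kept its sign for each of the 5 genes under every alternative in which the gene was fitted. With 1 array left out it ranged from -3.89 to -2.37 for Slc1a5, -2.23 to -1.60 for Fli1, -2.31 to -1.55 for Aldh9a1, 1.39 to 2.04 for Wls and -1.96 to -1.38 for Ppie. A pseudocount of 1 gave -3.54 for Slc1a5 and -2.02 for Ppie. One of 16 gave -2.62 for Slc1a5, -1.26 for Ppie and -1.53 for Aldh9a1. Each of these genes has a group mean near the floor. The filter at the 60th percentile removed all but Wls. The mean of both mutant lines minus CBA kept its sign and did not pass for any of the 5 under any alternative, with adjusted p from 0.084 (Slc1a5) upwards.

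Counts over all probe sets were unstable. Between the lines limma called 3, but 14 with the replicate block, 5 with a pseudocount of 16, 0 with only the Btk KO and Xid arrays (212 at an unadjusted p under 0.05), and 0 to 29 with 1 array left out, the 29 without the Btk KO array of run 2. For both mutant lines against CBA it called 11, but 144 with the replicate block, 7 after median centring, 0 without the intensity trend (545 unadjusted), and 0 to 39 with 1 array left out, the 39 without that same array. The 5 genes were chosen on the contrast between the lines. In it, with the replicate block, Slc1a5 and Fli1 were among the 14 probe sets called (0.188% of all). Nothing is read from these 2 calls. Each line's difference from CBA shares arrays with that contrast, so no calls are given for it. The cause of the unstable counts was not tested.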
